A study of Mus musculus with 6 samples.

Results

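The nuclear genes of the mitochondrial respiratory chain were examined in a set of accessible chromatin intervals from mouse embryonic fibroblasts. The genes were chosen by symbol (Nduf, Sdha to Sdhd, Uqcr, Cox4 to Cox8 and Atp5, protein-coding and autosomal), which gave 97 of 20665 autosomal protein-coding genes. The 97 genes and the 5 kb on either side of each were overlapped by 426 of the 323483 intervals, and no interval was shared between genes of the chain. By symbol, 47 genes belonged to complex I, 8 to complex II, 8 to complex III, 17 to complex IV and 17 to complex V, and 12 of the 97 encode assembly factors (Ndufaf1 to Ndufaf8, Sdhaf1 to Sdhaf4) rather than subunits.

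ATAC-seq marks open DNA by the adapters that a transposase can place there. All fibroblasts were heterozygous for the alleles M2-rtTA and TetO-Myf6. All were cultured over 24 h in the medium labelled iMPC medium, with bFGF (10 ng/mL). In the group Myf6 with F/R/C, doxycycline at 2 µg/mL was given to switch on Myf6, a regulator of skeletal muscle, with 3 compounds added, CHIR99021 (3 µM), RepSox (5 µM) and forskolin (5 µM). In the Myf6 group doxycycline (2 µg/mL) was the one addition, and the control group had the same iMPC medium with no addition. Each of the 3 groups had 2 libraries, and nothing in the labels says whether these came from separate cultures. The intervals are a single set joined over the experiment, with positions and no value for any library, so the groups were not compared here, the read depth behind an interval is unknown and no value has a replicate error. The group or groups in which an interval was open are not recorded, and its width is the extent of joined peaks and not a signal. Every difference below is a description, with no test. As a check of the labelled cell type, all 10 fibroblast markers examined had an interval within 1 kb of a gene end, against 2 of 5 macrophage and blood markers, 1 of 3 endothelial markers and 2 of 3 epithelial markers. Over all autosomal protein-coding genes 76.5% had one, so these few markers are a weak check.

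The respiratory chain passes electrons from NADH (complex I, NADH dehydrogenase) and succinate (complex II, succinate dehydrogenase) through complex III (the cytochrome bc1 complex) to oxygen at complex IV (cytochrome c oxidase), and the proton gradient built on the way drives complex V, the ATP synthase. Some subunits of every complex but the second are encoded in mitochondrial DNA, and the rest come from the nuclear genes described here. Their promoters are known as targets of the factors NRF1, GABP and YY1 and of the estrogen-related receptors, with the coactivator PGC-1alpha. Several subunits of complex IV exist in a ubiquitous form and in a form used by heart and skeletal muscle.

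The promoters that the results turn on are shown first, from 250 bases before the start base to 29 bases after it, read 5′ to 3′ along the gene. The sequences are from the RefSeq promoter table of GRCm38.p6. Capitals mark the letters of the motifs searched: NRF1 core (GCATGCGC), ETS or GABP core (CCGGAAG), YY1 core (AAGATGGC), Sp1 (GGGCGG), the shorter CRE form (TGACGTC), the shorter ERR form (CAAGGTCA), an E-box with a GC centre (CAGCTG) and the TATA box (TATAAA), each on either strand. The first 4 are the muscle-type and ubiquitous isoform genes of complex IV whose starts were tabulated, given in pairs with the muscle-type gene in front.
Cox7a1: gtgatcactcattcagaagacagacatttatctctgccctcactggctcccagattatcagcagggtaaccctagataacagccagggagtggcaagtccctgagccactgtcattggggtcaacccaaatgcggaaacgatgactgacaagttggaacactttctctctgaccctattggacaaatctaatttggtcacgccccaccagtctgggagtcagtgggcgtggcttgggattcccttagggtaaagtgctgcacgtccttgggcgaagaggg
Cox7a2: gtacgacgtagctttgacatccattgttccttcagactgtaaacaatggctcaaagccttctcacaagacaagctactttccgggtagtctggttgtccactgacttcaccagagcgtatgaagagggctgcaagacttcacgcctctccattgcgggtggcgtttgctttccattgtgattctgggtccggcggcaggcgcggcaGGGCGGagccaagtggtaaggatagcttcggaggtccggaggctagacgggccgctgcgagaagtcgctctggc
Cox8b: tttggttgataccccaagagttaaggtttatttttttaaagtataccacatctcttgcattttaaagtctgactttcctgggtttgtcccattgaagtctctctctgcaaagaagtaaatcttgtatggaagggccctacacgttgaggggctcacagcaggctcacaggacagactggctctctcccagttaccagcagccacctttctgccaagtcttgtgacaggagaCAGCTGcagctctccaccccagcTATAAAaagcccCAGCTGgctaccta
Cox8a: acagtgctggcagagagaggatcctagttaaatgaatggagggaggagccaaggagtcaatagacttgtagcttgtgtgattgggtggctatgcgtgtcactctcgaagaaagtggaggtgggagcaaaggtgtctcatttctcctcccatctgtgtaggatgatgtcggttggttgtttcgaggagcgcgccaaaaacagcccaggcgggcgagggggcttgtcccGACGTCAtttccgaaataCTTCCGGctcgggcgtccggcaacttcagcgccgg
The stretch of Cox7a1 is chr7:30183921-30184200 (plus strand), that of Cox7a2 is chr9:79759824-79760103 (minus strand), that of Cox8b is chr7:140900417-140900696 (minus strand) and that of Cox8a is chr19:7217587-7217866 (minus strand).

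The next 4 are shown because they hold the NRF1 or ETS letters inside a start interval, with Cox6a1 for complex IV, Ndufa11 for complex I, Sdhd for complex II and Atp5k for complex V.
Cox6a1: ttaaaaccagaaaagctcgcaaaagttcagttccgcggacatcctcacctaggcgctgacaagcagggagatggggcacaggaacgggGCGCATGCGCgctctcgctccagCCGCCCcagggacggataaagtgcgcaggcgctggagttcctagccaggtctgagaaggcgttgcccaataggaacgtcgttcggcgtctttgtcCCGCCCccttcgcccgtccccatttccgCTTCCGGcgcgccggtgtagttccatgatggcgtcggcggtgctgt
Ndufa11: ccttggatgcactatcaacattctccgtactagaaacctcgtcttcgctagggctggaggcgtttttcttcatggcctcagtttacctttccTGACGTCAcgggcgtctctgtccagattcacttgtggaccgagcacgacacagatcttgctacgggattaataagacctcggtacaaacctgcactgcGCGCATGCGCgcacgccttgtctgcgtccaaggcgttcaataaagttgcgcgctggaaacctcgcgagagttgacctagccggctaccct
Sdhd: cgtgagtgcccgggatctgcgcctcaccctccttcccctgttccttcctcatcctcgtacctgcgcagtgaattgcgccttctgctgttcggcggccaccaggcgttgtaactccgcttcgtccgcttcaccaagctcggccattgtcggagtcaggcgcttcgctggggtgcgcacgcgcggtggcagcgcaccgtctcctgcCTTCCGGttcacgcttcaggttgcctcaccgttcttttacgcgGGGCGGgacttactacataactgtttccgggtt
Atp5k: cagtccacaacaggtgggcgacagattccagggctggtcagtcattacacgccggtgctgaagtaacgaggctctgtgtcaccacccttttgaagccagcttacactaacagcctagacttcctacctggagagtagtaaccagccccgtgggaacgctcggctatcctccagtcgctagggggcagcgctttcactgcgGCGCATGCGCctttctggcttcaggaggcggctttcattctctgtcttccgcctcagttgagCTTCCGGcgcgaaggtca
These lie at chr5:115348929-115349208 (minus strand), chr17:56717512-56717791 (plus strand), chr9:50603820-50604099 (minus strand) and chr5:108434370-108434649 (minus strand). The last pair is shown because no interval lay at the start or anywhere within 5 kb of the gene.
Ndufa6: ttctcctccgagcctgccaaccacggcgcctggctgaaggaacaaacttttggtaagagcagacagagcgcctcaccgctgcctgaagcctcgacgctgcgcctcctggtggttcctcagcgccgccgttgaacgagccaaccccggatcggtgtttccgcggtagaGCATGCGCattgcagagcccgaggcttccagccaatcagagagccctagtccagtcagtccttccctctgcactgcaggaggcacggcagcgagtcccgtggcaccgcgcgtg
Atp5g1: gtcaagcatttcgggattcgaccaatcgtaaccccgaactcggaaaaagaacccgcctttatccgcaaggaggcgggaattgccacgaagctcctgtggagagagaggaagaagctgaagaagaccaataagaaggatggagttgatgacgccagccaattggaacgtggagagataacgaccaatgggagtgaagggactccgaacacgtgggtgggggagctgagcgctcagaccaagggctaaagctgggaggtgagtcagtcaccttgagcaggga
These lie at chr15:82354262-82354541 (minus strand) and chr11:96075602-96075881 (minus strand).

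Nearly all respiratory chain genes had an accessible start. A start was tabulated for 79 of the 97 genes, and in 75 of these (94.9%) an interval overlapped the 1 kb on either side of it by at least 1 bp, against 73.4% of the 16457 autosomal protein-coding genes with a tabulated start. In the same 75 genes the start base itself lay inside an interval, against 66.8% of all genes. In 75 of the 79 the widest start interval measured at least 600 bp, against 65.7% of all genes with a tabulated start, and in 61 of the 79 it measured at least 1000 bp, against 52.7%. The 4 genes with a tabulated start and no start interval were Ndufa6 and Ndufb4b of complex I by symbol, Cox7b2 of complex IV and Atp5g1 of complex V.

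The other 18 genes had no tabulated start and were read at their annotated ends. They included Ndufa2, Ndufa4l2, Ndufaf6, Ndufb4c, Ndufb9, Ndufs1, Sdhc, Uqcrb, Uqcrc2, Uqcrq, Cox4i1, Cox4i2, Cox6a2, Cox6c, Cox8c, Atp5a1 and Atp5mpl. Of these, 16 had an interval within 1 kb of an annotated end, and Ndufb4c and Cox8c had none. Over all 97 genes, 90 (92.8%) had an interval at an end, against 76.5% of the 20665 genes. Cox7a2 is among the 7 without one although its tabulated start lay in an interval, because its annotated gene runs far beyond that start.

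The start intervals were of ordinary width. Taking the widest start interval per gene, the median was 1303 bp for the 75 genes, with quartiles of 1081 and 1521 bp, against 1273 bp over all genes with a start interval, whose quartiles were 949 and 1628 bp. Of the 75 genes, 52 lay between the quartiles of all genes, 15 above and 8 below. The narrow ones were Cox8b, Ndufab1, Cox7c, Cox7a1, Ndufs6, Sdhaf4, Ndufa7 and Atp5e, between 658 and 893 bp. The widest was that of Uqcrh, which encodes the hinge protein of complex III, with 2459 bp (chr4:116074814-116077272), of which 2202 bp lay before the start. A single start interval was found in 61 of the 79 genes (77.2%), against 52.7% of all genes with a tabulated start. These shares also reflect the genes without any start interval. Among genes with a start interval, 61 of the 75 had a single one, against 8677 of 12076 over all genes.

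**Figure D1:**
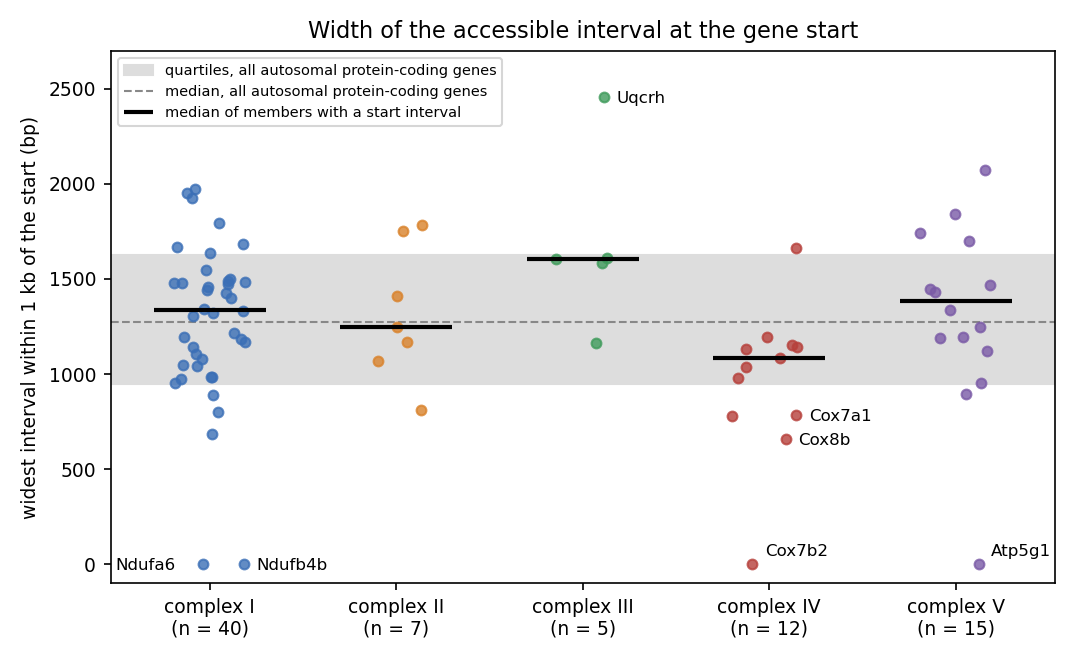
Width in bp of the widest interval within 1 kb of the tabulated gene start, by complex, with 1 point per gene and genes without such an interval at 0. Black lines are the medians of the genes with a start interval, and the grey band and dashed line are the quartiles and median of all autosomal protein-coding genes with one. The complex IV points lie mostly below the dashed line, with Cox7a1 at 786 bp and Cox8b at 658 bp.

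Around the start, the respiratory chain genes were covered more often than all genes close by and less often further into the gene. At 500 bp before the start 46 of the 79 genes (58.2%) were inside an interval, against 35.5% of all genes, and at 500 bp after it 53 (67.1%) were, against 49.1%. At 1000 bp after the start the shares were 22.8% and 22.9%, and at 2000 bp after it none of the 79 genes was covered, against 7.40% of all genes. The 90 intervals that reached the start windows had a median width of 1188 bp, and the 253 other intervals over or near the same genes had a median of 281 bp.

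**Figure D2:**
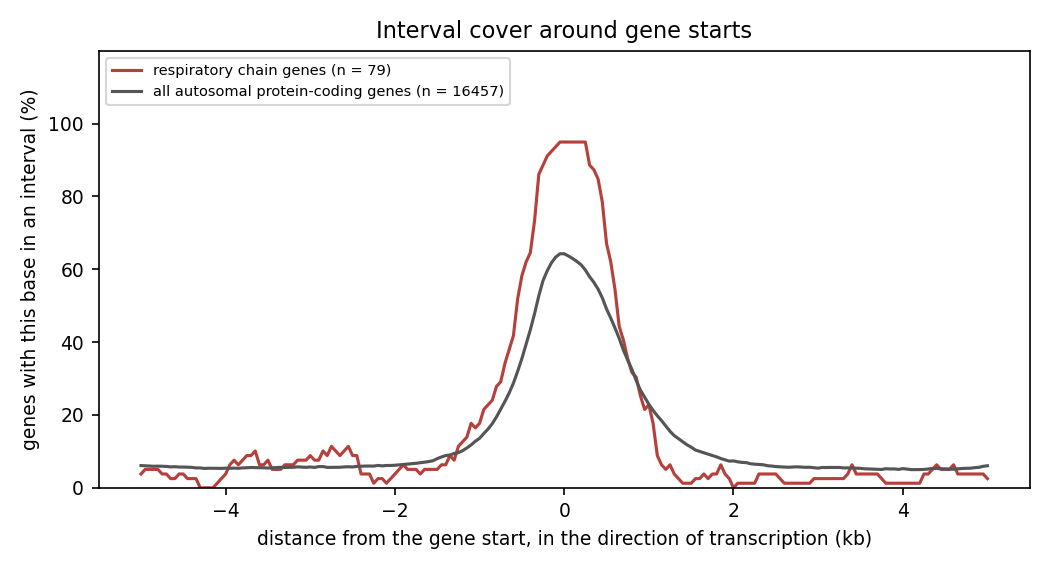
Share of genes, in percent, whose base at a given distance from the start (kb, negative before the start) lay in an interval, for the 79 respiratory chain genes and for 16457 autosomal protein-coding genes, using 1 tabulated start per gene. The curve of the respiratory chain genes reaches 94.9% at the start and lies below that of all genes from 1 kb to 2 kb after it.

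The respiratory chain genes held few intervals in number. The median gene had 4 intervals over its body or within 5 kb, against 6 over all genes, and the genes were also shorter, with a median length of 7.50 kb against 17.5 kb. Per 10 kb of this span the medians were 1.82 and 1.87 intervals, and 12.9% of the span was covered, against 10.1%. At least 1 interval was present at 93 of the 97 genes, against 85.3% of all genes. Counts given for named genes include the 5 kb flanks, which may reach neighbouring genes. Of the 426 intervals, 258 lay over a gene of the chain and the others in the flanks alone. At Sdhd, for example, 1 of 6 intervals lay over the gene. The most intervals lay at Ndufaf2 (23), an assembly factor of complex I and, with 106.1 kb, the longest of the 97 genes. Cox7b2, of 105.4 kb, held 2 intervals, of 128 and 264 bp, neither of them at its start.

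**Figure D3:**
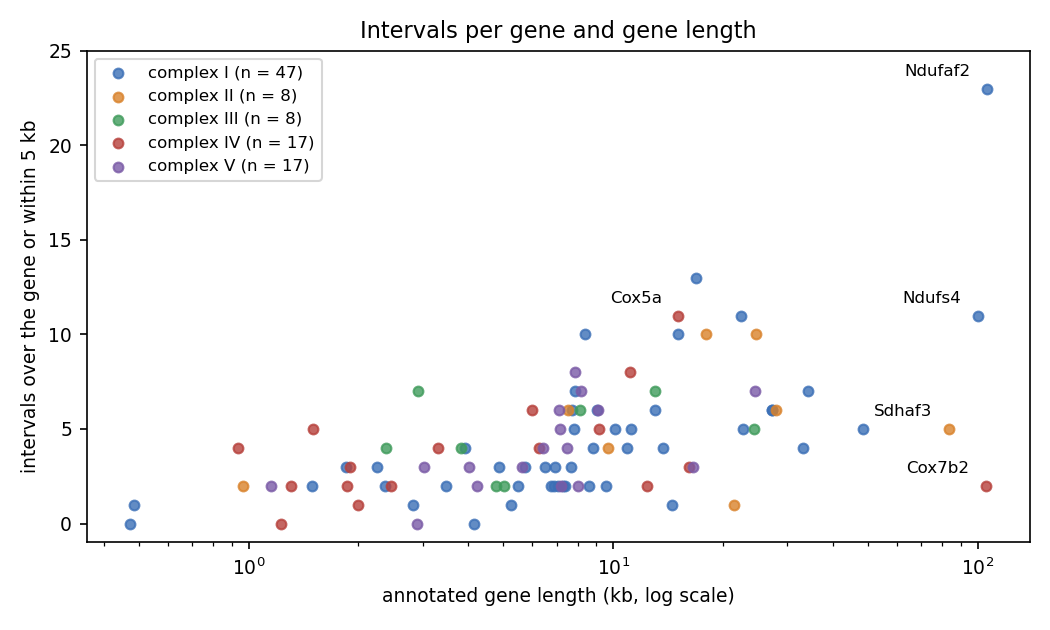
Number of intervals over each gene or within 5 kb of it, against the annotated gene length in kb on a log axis, with 1 point per gene coloured by complex. Ndufaf2 has 23 intervals, while Cox7b2 has 2 at a similar length to Ndufaf2.

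In complex I, 38 of the 40 genes with a tabulated start had a start interval, with a median width of 1337 bp. All 7 core subunits, which carry the flavin and the iron-sulfur clusters, had an interval at a gene end. Over all autosomal protein-coding genes the shares were 73.4% at a tabulated start and 76.5% at a gene end. These shares also stand beside the counts of the other complexes below. At Ndufs1 (chr1:63143592-63176822), the largest core subunit, an interval of 1531 bp spanned the upper end. Ndufs4, an accessory subunit whose loss causes Leigh-like disease in mice, held 11 intervals over 100.3 kb and a start interval of 1793 bp, and Ndufa12 held 11. The widest start intervals in complex I were those of the assembly factors Ndufaf3 (1973 bp) and Ndufaf8 (1953 bp), followed by Ndufb1 (1924 bp) and Ndufs4. Over all 11 assembly factors of complexes I and II with a tabulated start the median was 1481 bp, against 1247 bp over the 64 other genes with a start interval.

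In complex II all 7 genes with a tabulated start had a start interval, with a median of 1245 bp. Sdha, the flavoprotein that oxidises succinate, held 6 intervals and a start interval of 1166 bp. Sdhb, the iron-sulfur subunit, held 10 intervals with 1245 bp at the start, and Sdhd, a membrane anchor, held 6 with 1412 bp. Sdhc, the other anchor, had a single interval, of 1349 bp, at an annotated end. Sdhaf2, needed to attach the flavin to Sdha, held 10 intervals with 1753 bp at the start, and Sdhaf1 had the widest start interval of complex II, with 1783 bp.

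In complex III all 5 genes with a tabulated start had a start interval, with a median of 1607 bp. Besides Uqcrh with 2459 bp, the core protein gene Uqcrc1 had 1609 bp, Uqcr11 had 1607 bp and Uqcr10 had 1582 bp. The Rieske iron-sulfur protein gene Uqcrfs1 had 1162 bp. The most intervals lay at Uqcrc1 and Uqcrq (7 each), Uqcrh (6) and Uqcrc2 (5). All 3 complex III genes without a tabulated start had an end interval, of 988 bp at Uqcrb, 1972 bp at Uqcrc2 and 1662 bp at Uqcrq.

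In complex V, 14 of 15 genes with a tabulated start had a start interval, with a median of 1382 bp. The catalytic beta subunit gene Atp5b had 955 bp at the start and the gamma subunit gene Atp5c1 had 1190 bp. The 4 genes of the F1 part (head and central stalk) with a start interval had a median of 1073 bp. The median was 1458 bp over the 10 genes of the membrane part and peripheral stalk. The widest of these 10 were Atp5j (2071 bp), Atp5h (1841 bp), Atp5l (1743 bp) and Atp5md (1702 bp). The start interval reached the start window of another gene in 4 of these 10 and in 1 of the 4 F1 genes. The most intervals lay at Atp5j2 (8), Atp5c1 and Atp5g2 (7 each) and Atp5a1 and Atp5b (6 each). The c-ring subunit is encoded by Atp5g1, Atp5g2 and Atp5g3, which make the same mature protein. Atp5g2 had an interval of 695 bp over its start and another of 1467 bp just before it, Atp5g3 had 1448 bp at the start, and Atp5g1 had no interval.

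Complex IV had the lowest median width of the 5 complexes, 1083 bp over the 11 of 12 genes with a start interval. Of these 11, 3 lay below the lower quartile of all genes and 1 above the upper. Among the ubiquitous subunits, Cox5a held 11 intervals with 1131 bp over its start, Cox5b had 1151 bp and Cox7c had 777 bp. Cox4i1, which had no tabulated start, held 6 intervals, of which that of 1263 bp spanned an annotated end. Cox7a2l, which by its symbol resembles Cox7a2 and acts in joining complexes III and IV, had 1194 bp.

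The widest single interval at the start, or for Cox6a2 near an annotated end, was narrower at all 3 muscle-type isoform genes than at their ubiquitous partners. The covered share of the whole span was higher at 2 of the 3, Cox7a1 and Cox8b, and the number of covered bases at Cox8b alone. Cox7a1 (chr7:30184171-30186030) had 786 bp over its start (chr7:30183826-30184611) and Cox7a2 had 1143 bp (chr9:79759387-79760529). Cox8b (chr7:140898942-140900446) had 555 bp over its start and 658 bp just before it (chr7:140900699-140901356), and Cox8a had 1083 bp (chr19:7217130-7218212). Cox6a2 (chr7:128205435-128206366), which had no tabulated start, had no interval over the gene at all and 125 bp within 1 kb of an end (chr7:128204859-128204983), against 1036 bp over the start of Cox6a1 (chr5:115348536-115349571). The start widths of Cox7a1 and Cox8b lie below 949 bp, the lower quartile of all genes with a start interval. This was not particular to muscle-type genes, as the ubiquitous Cox7c had 777 bp. Within 2 kb of an end Cox6a2 had an interval of 671 bp, and the difference from Cox6a1 was then -365 bp instead of -911 bp.

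The number of intervals and the share covered did not follow the same order. Cox8b held 5 intervals within 5 kb and Cox8a held 2, Cox7a1 held 2 and Cox7a2 held 3, and Cox6a2 and Cox6a1 held 4 each. Intervals covered 22.8% of the gene and its 5 kb flanks at Cox8b and 10.9% at Cox8a, 9.81% at Cox7a1 and 7.03% at Cox7a2, and 9.60% at Cox6a2 and 22.5% at Cox6a1. At Cox7a1 this was 1163 bp of a span of 11.9 kb, and at Cox7a2 it was 1840 bp of a longer span, 26.2 kb. The intervals of Cox8b lay mostly before its start, as a row of 658, 264 and 970 bp. Whether any of these muscle-gene intervals came from the Myf6 libraries was not analysed here.

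**Figure D4:**
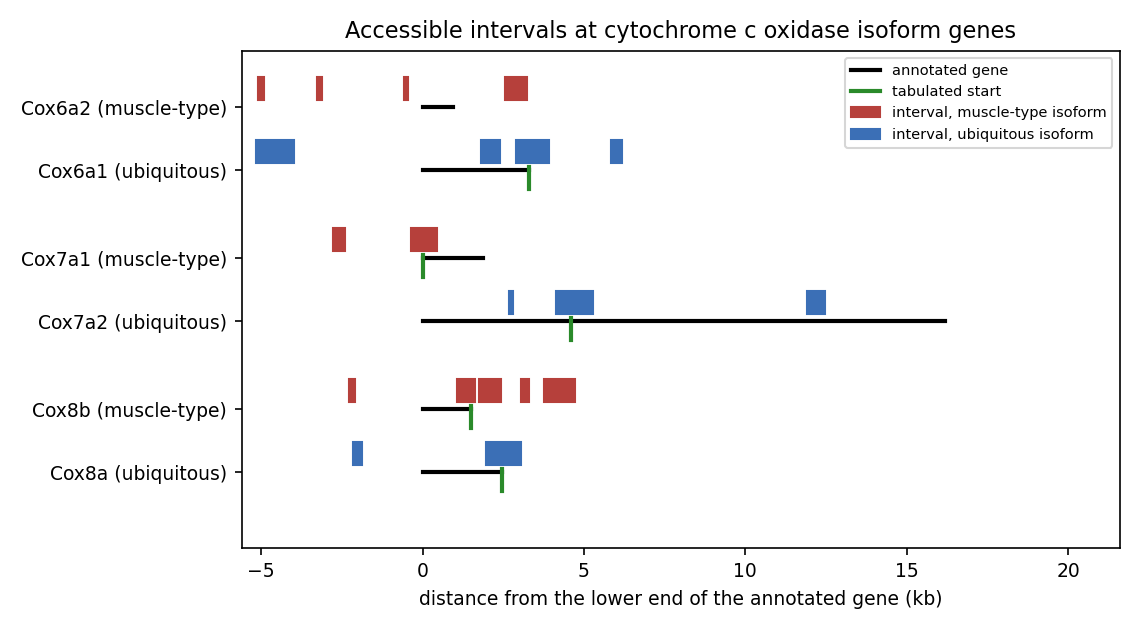
Intervals (boxes) at the 3 muscle-type genes and their ubiquitous partners, placed by distance in kb from the lower end of the annotated gene (black line), with the tabulated start in green; Cox6a2 has no tabulated start. Each ubiquitous gene has an interval of over 1000 bp across its start, while those at the muscle-type genes are narrower and Cox6a2 has none over the gene.

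Isoforms of other tissues were mixed. Cox4i2, the lung isoform, had 1056 bp at an annotated end and 8 intervals, against 1263 bp and 6 for Cox4i1. Cox6b2, a testis isoform, had a wider start interval than its ubiquitous partner, with 1663 bp against 981 bp for Cox6b1, and held 2 intervals against 5. Cox8c, another testis isoform (chr12:102899306-102900534), had no interval, and Cox7b2 had none at its start. Ndufa4l2, a gene induced by hypoxia, had 467 bp at an end and 2150 bp inside the gene, against 1341 bp at the start of Ndufa4, whose product is now counted with complex IV. The short genes Ndufb4b and Ndufb4c, both under 0.5 kb, had no interval and a single interval of 117 bp, while Ndufb4 had 1167 bp over its start.

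Both Ndufa6 and Atp5g1 encode subunits used in most cells, and both lay in stretches with no interval. Ndufa6 (chr15:82350139-82354291), an accessory subunit of complex I, lay in 31.0 kb without an interval, which also held all of Smdt1 and Pheta2. Atp5g1 (chr11:96072793-96075694) lay in 43.3 kb without an interval, with the nearest 7691 bp below it and 32687 bp above it. Cox8c lay in 62.6 kb and Ndufb4b in 15.7 kb without an interval. The intervals are numbered without a gap from 1 to 323483 along the chromosomes. Whether reads map there uniquely, or were removed before peaks were called, was not tested.

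Many start intervals also reached the start of another gene. In 24 of the 75 genes with a start interval (32.0%) it overlapped the start window of another protein-coding gene. Over all genes with a start interval the share was 14.4%. In 22 of the 75 the start interval held the other gene's start base (29.3%, against 13.4% of all genes with a start interval). Only genes with a tabulated start could be found as partners. The interval of Atp5j (chr16:84834285-84836355) also held the start of Gabpa, the DNA-binding subunit of GABP. That of Sdhd also held Timm8b, a chaperone of mitochondrial protein import, that of Ndufb5 held Mrpl47, a mitochondrial ribosomal protein, and that of Ndufa7 held Rps28, a cytoplasmic one. The partners of Uqcrh (Lrrc41), Atp5h (Kctd2), Ndufb1 (Cpsf2), Sdhaf2 (Cpsf7) and Sdha (Ccdc127) are other examples. By complex, 14 of 38 genes in complex I, 3 of 7 in complex II, 2 of 5 in complex III, 5 of 14 in complex V and 0 of 11 in complex IV had a start interval that overlapped another start window. The genes whose interval reached no other start had a median width of 1185 bp.

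Most of the promoters were rich in CpG. Over 84 promoters of 300 bases (250 before the start and 50 from it on), the respiratory chain genes had a median of 20 CpG dinucleotides and 58.7% G and C, against 14 and 57.0% over 20085 promoters of autosomal protein-coding genes. The promoter lay wholly inside an interval in 75 of the 84 (89.3%), against 55.3% of all. Those of all genes that lay wholly inside an interval had a median of 22 CpG. Cox8b had 2 CpG and Cox7a1 had 7, against 19 at Cox8a and 20 at Cox7a2. Low counts were not particular to muscle-type genes, with 5 at Ndufb4b, 8 at Ndufc2 and 10 each at Cox6b2 and Cox7b2.

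The letters of NRF1, GABP and YY1 sites were found in a larger share of these promoters than of all promoters. The full NRF1 motif, a palindrome of GC-rich ends that contains the core, was in 7 of 84 (8.33%), against 1.34% of all promoters and 2.04% of those wholly inside an interval. The NRF1 core was in 12 (14.3%), against 3.55% and 5.18%. The ETS or GABP core was in 22 (26.2%), against 11.9% and 17.98%. The YY1 core was in 11 (13.1%), against 3.06% and 4.19%. At least 1 of these 3 cores was in 38 promoters (45.2%), against 17.1% of all. Promoters with both NRF1 and ETS cores were those of Atp5k, Atp5l, Cox6a1, Sdhb and Uqcr11, 5 of 84 (5.95%), against 0.712% of all. Unlike the single motifs, these combined shares were not set against promoters wholly inside an interval. A match of letters is a description of the sequence and not a bound site.

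The other motifs were more frequent, less frequent or alike in share. The 84 promoters came from 79 genes, so a site near 2 close starts of the same gene can be counted more than 1 time. The shorter CRE form was in 8 promoters of 7 genes (9.52%), against 3.92% of all and 5.57% of those inside an interval. The full CRE (TGACGTCA), which contains the shorter form, was in 4 (4.76%), against 2.30% and 3.38%. The full ERR motif (TCAAGGTCA) was in 2 promoters, of Atp5g3 and Sdhd (2.38%), against 0.339% and 0.189%. Its shorter form, contained in it, was in 4 (4.76%), against 1.31% and 0.855%. Sp1 letters were in 46.4% of the 84, against 47.0% and 68.7%. The TATA letters (TATAAA), at any place in the 300 bases, were in 11.9% (10 promoters of 9 genes). The shares were 12.7% of all and 5.63% of those inside an interval. AP-1 letters (TGANTCA) were in 8.33%, against 7.06% and 5.44%, and E-boxes of any kind (CANNTG) in 67.9%, against 68.7% and 61.1%. The E-box with a GC centre (CAGCTG, one of the CANNTG forms), which myogenic factors are known to bind, was in 6 promoters (7.14%), of Atp5b, Cox8b, Ndufa8, Ndufb10, Ndufs5 and Ndufv2, against 15.6% of all and 15.3% of those inside an interval. Cox8b held 2 copies, beginning at -19 and 16 bases from the start base. Its TATA letters began 4 bases after the start base, not before it. Cox8a held 2 ETS cores, of which 1 lay across the start base and the other lies past the stretch shown, and in Cox7a1 none of the motifs marked by capitals was found.

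**Figure D5:**
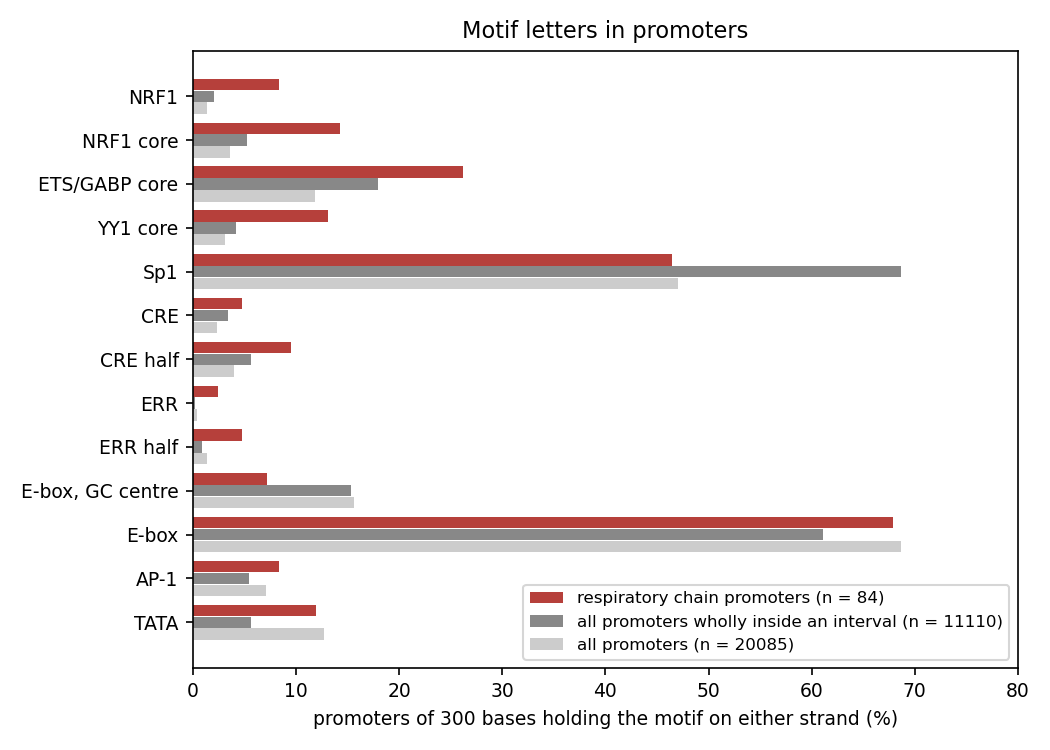
Share of 300-base promoters, in percent, that hold each motif on either strand, for respiratory chain promoters (n = 84), all promoters wholly inside an interval (n = 11110) and all promoters of autosomal protein-coding genes (n = 20085). NRF1, ETS or GABP and YY1 letters have longer bars for the respiratory chain, and the E-box with a GC centre has a shorter one.

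Other genes of oxidative phosphorylation had accessible starts too. Of 37 listed carriers and assembly factors outside the symbol rule, 32 had a tabulated start and 31 of these had a start interval. The share was 96.9%, against 73.4% of all autosomal protein-coding genes with a tabulated start. The median width was 1227 bp, against 1273 bp over all genes with a start interval. The listed gene without a start interval was Cyct, the testis form of cytochrome c, while Cycs, the form of other tissues, had 1347 bp. Cox14, an assembly factor of complex IV, had the widest, with 2385 bp, and Cox10, needed for heme A synthesis, held the most intervals (31). Of 14 regulators, 13 had a tabulated start and all 13 had a start interval, beside the same 73.4% of all genes. Ppargc1a, which encodes PGC-1alpha, held 92 intervals and Esrrg held 77, but these genes are long (661.6 and 606.4 kb). Per 10 kb of gene and flanks they held 1.37 and 1.25 intervals, against 1.54 at Gabpa, 1.73 at Nrf1, 2.77 at Ppargc1b, 3.32 at Esrra and 3.76 at Yy1. Perm1, a muscle regulator of this pathway, had 3 start intervals, the widest 1642 bp.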

How the data were processed

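Per the labels' protocols, each library was an Omni-ATAC preparation amplified over 12 cycles. Per the submitters' processing notes, BWA and MACS2 were used with GRCm38.p6. The authors annotated their consensus peaks in HOMER (annotatePeaks) against GENCODE vM23 and the GRCm38.p6 sequence, per the file headers. How peaks were called, filtered and joined, and how reads from near-identical copies were placed (19 annotated pseudogenes carry symbols of the rule), was not stated in these sources. The deposited score is 0 in every row and was not used. Positions are 1-based, and intervals measured 96 to 4160 bp. No interval overlapped another.

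Genes and starts came from the RefSeq tables of GRCm38.p6, in which 79 of 97 genes had a start and 5 of these had more than 1. Start intervals overlapped the 1 kb on either side of a start by at least 1 bp. The members and lists were chosen with earlier results of these data known. Named genes were the isoform pairs, per complex the 4 genes with the most intervals and the 4 with the widest start interval, and all genes without a start interval; 1 gene taken by this rule is not reported here. Others, such as core subunits and sharing examples, were chosen after their values were seen, as were CpG content, cover around starts and interval-free stretches. Overlap and motif searches were tested on simulated data. Software was matplotlib 3.10.9, scipy 1.17.1, pandas 2.3.3 and numpy 2.4.6 under Python 3.11.15.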

Additional observations from a re-analysis of the deposited data

How the results depend on the processing

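No paired analysis was possible because the intervals carry no value for any library; for the same reason the comparison of groups, leaving out libraries and other normalizations were not run. The count of 75 genes with a start interval held in each changed setting of window, width and overlap, while the share of all genes moved from 73.4%. That share was 71.0% with a start window of 500 bp and 77.0% with 2 kb. For the start base alone it was 66.8%. It was 70.1% and 65.7% for minimum widths of 300 and 600 bp. With at least 50% of the interval inside the window it was 72.1%. Without assembly factors the count was 64 of 68 genes. The median of 4 intervals per gene became 2 (against 3 in all genes) with no flank, 2 (against 3) with intervals of at least 300 bp and 2 (against 2) with intervals of at least 600 bp. With no flank, the muscle-type genes minus their ubiquitous partners differed by -2 intervals (Cox6a2), -2 (Cox7a1) and 0 (Cox8b), because flanking intervals no longer count. With a window of 2 kb the width of Cox6a2 minus Cox6a1 was -365 bp. Over the last 150 bases before the start and 50 from it on, E-boxes were in 46.4% of the promoters (53.2% of all). Over 300 bases the shares were 67.9% and 68.7%. AP-1 letters were in 3.57% (4.73% of all) over the shorter stretch and in 8.33% (7.06% of all) over 300 bases. The order against all promoters was thus not the same in both stretches for AP-1. The other 45 of 54 alternative values stayed within 1.5 times of the main value, or for motif shares within its 95% Wilson interval. Depth limits all of this: with no read counts, an absent interval cannot be told from one too weakly covered to be called.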

Other observations

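The 3 X-linked genes that fit the same symbols, outside the autosomal set, also had start intervals. Ndufa1, a small accessory subunit of complex I, had an interval of 2161 bp at its start and 2 intervals in all. Ndufb11, another accessory subunit, had a single interval, of 1491 bp. Cox7b, of complex IV, had 569 bp at the start and 5 intervals, which is below the 658 bp of Cox8b, the narrowest of the autosomal genes with a start interval.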
